A study of Mus musculus with 2 samples.

Results

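The 31 genes described here mark astrocytes, the support cells of the brain, or radial glia and neural stem cells, from which astrocytes arise. They were chosen by symbol from the 17359 genes of the deposited table, and all 31 were found. The choice was of astrocyte and radial glia genes outside the intermediate filament, connexin and transporter families, though the cotransporter gene Slc4a4 is among them. The study is concerned with Seh1, a nuclear pore protein, in neurogenesis, and its RNA profiles come from mouse neural stem cells transfected with siRNA. One group is the control genotype with a scrambled siRNA (siSCR, 1 library), and the other is the Chd4 knockdown with an siRNA against Chd4 (siChd4, 1 library). Not given in the sources used here were the strain, age and passage of the cells, the siRNA dose, and how long after transfection RNA was taken. With 1 library per group there is no test and no spread between cultures, so each value below compares these libraries only.

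Radial glia are the stem cells of the developing brain. They make neurons first and astrocytes later, a switch driven by JAK-STAT, BMP and Notch signals together with the NFI transcription factors. Many of their genes stay on in astrocytes, so that Fabp7, Aldoc or Sparcl1 can be read in both. Genes such as Aqp4, Aldh1l1 and Glul are read as signs of astrocyte maturation, and Pax6, Lhx2, Emx2, Nr2e1, Msi1 and Prom1 as signs of the stem cell state. Chd4 is the ATPase of NuRD, a complex that remodels and deacetylates chromatin and one form of which is drawn to methylated CpG by its Mbd2 subunit.

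Levels are given in TPM (transcript abundance corrected for transcript length and scaled to the same total in each library), and differences as the fold of TPM, siChd4 over siSCR, with a 95% interval. That interval covers counting error only. Genes were compared where their mean was 1 TPM or more, which held for 12882 of the 17359 and for all 31 markers. A gene is called higher or lower when TPM plus 1 differed by 1.5-fold or more. The libraries held 19816811 (siSCR) and 20072009 (siChd4) estimated counts. Chd4 itself was at 203 TPM in siChd4 beside 250 TPM in siSCR, a fold of 0.815 (0.795 to 0.836), so the targeted gene differed by less than the 1.5-fold limit. A lower log2 ratio than that of Chd4 was found for 19.4% of compared genes. The markers fixed for the stem cell label were all present, with Fabp7 at 6105 TPM, Vim at 3340 TPM, Nes at 328 TPM, Sox2 at 314 TPM, Msi1 at 84.3 TPM and Pax6 at 21.6 TPM in siSCR.

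For orientation, the bases just upstream of the transcript start are shown for genes whose levels the results turn on. They comprise 6 of the 7 markers past 1.5-fold, and Ncan, the counterpart of Bcan. Each line holds 150 bases, 5′ to 3′, that end 1 base before the most upstream RefSeq start in GRCm38.p6, and capitals mark CpG dinucleotides. The windows are chr3:88000357-88000506 (Bcan), chr8:70120845-70120994 (Ncan), chr5:77115124-77115273 (Hopx), chr7:4119380-4119529 (Ttyh1), chr5:44101737-44101886 (Prom1), chr14:51914005-51914154 (Ndrg2) and chr2:102901666-102901815 (Cd44). Ttyh1 lies on the plus strand and the others on the minus strand.
Bcan: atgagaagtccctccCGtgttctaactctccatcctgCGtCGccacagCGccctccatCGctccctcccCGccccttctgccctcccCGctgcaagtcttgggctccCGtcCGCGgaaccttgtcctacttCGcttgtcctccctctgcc
Ncan: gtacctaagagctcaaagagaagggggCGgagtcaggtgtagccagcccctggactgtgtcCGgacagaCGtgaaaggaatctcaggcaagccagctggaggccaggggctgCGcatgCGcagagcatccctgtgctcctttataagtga
Hopx: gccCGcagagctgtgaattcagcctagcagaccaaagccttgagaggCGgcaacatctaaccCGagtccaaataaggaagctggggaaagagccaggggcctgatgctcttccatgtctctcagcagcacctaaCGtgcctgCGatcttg
Ttyh1: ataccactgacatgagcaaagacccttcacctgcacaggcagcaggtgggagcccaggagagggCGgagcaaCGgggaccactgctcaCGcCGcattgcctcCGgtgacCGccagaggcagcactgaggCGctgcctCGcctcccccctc
Prom1: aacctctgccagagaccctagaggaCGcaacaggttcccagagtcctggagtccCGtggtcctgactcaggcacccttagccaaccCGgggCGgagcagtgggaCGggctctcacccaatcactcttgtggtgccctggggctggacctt
Ndrg2: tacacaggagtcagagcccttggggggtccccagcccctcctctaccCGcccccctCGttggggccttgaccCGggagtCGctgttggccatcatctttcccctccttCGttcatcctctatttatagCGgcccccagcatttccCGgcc
Cd44: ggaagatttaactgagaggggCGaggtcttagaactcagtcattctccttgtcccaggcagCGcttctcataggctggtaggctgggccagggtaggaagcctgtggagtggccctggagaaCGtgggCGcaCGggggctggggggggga

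Over the whole promoter window, from 250 bases before to 50 after the start, Bcan held 24 CpG, Ttyh1 14, Ndrg2 11, Prom1 10, Ncan 9, Hopx 8 and Cd44 6. Higher and lower genes thus overlapped in CpG number. Of the 31 markers, 25 had such a window in the RefSeq table, and their median was 9 CpG, beside 21 over the 10330 compared genes that had one. The 14 astrocyte genes had a median of 7 and the 9 stem cell genes one of 18, with Msi2, Lhx2 and Emx2 at 39, 34 and 26 CpG. The astrocyte gene Slc4a4 was an exception with 50 CpG. The half-site TTGGC of the NFI factors, on either strand, was found in 14 of the 25 windows (56.0%) and in 50.7% of windows of compared genes. The STAT motif TTCNNNGAA, which reads the same on both strands, was found in 3 of the 25 (12.0%), in Acsbg1, Agt and Ntsr2, beside 6.71%. The letters TATAAA, on either strand, were found in 4 of the 25 (16.0%), in Agt, Dio2, Ncan and Ndrg2, beside 6.52%.

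The markers differed in both directions. Of the 31, 4 were higher in siChd4 (Sparcl1, Bcan, Hopx and Ttyh1), where 6.75% of all compared genes were, and 3 were lower (Cd44, Ndrg2 and Prom1), where 4.47% were. Ncan lay just short of the limit, with a log2 ratio of -0.58. The log2 ratio was below 0 for 19 markers and above 0 for 12, while 55.3% of all compared genes were below 0. The median log2 ratio of the 31 was -0.14, beside -0.04 over all compared genes. The counting interval lay above 1 for 9 markers (25.1% of compared genes), below 1 for 17 (34.1%) and included 1 for 5 (Mlc1, Ntsr2, Agt, Emx2 and Nr2e1). Such intervals narrow as counts rise, so these shares also depend on how abundant the genes are. No marker reached 2-fold in either direction, which 2.26% of compared genes did upward and 0.629% downward, and Ndrg2 came nearest. At a lower limit, a log2 ratio of 0.322, 6 markers were higher and 7 lower, where 14.9% and 17.1% of compared genes were, and Glul (0.321) and Nfix (-0.319) lay just short of it.

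**Figure D1:**
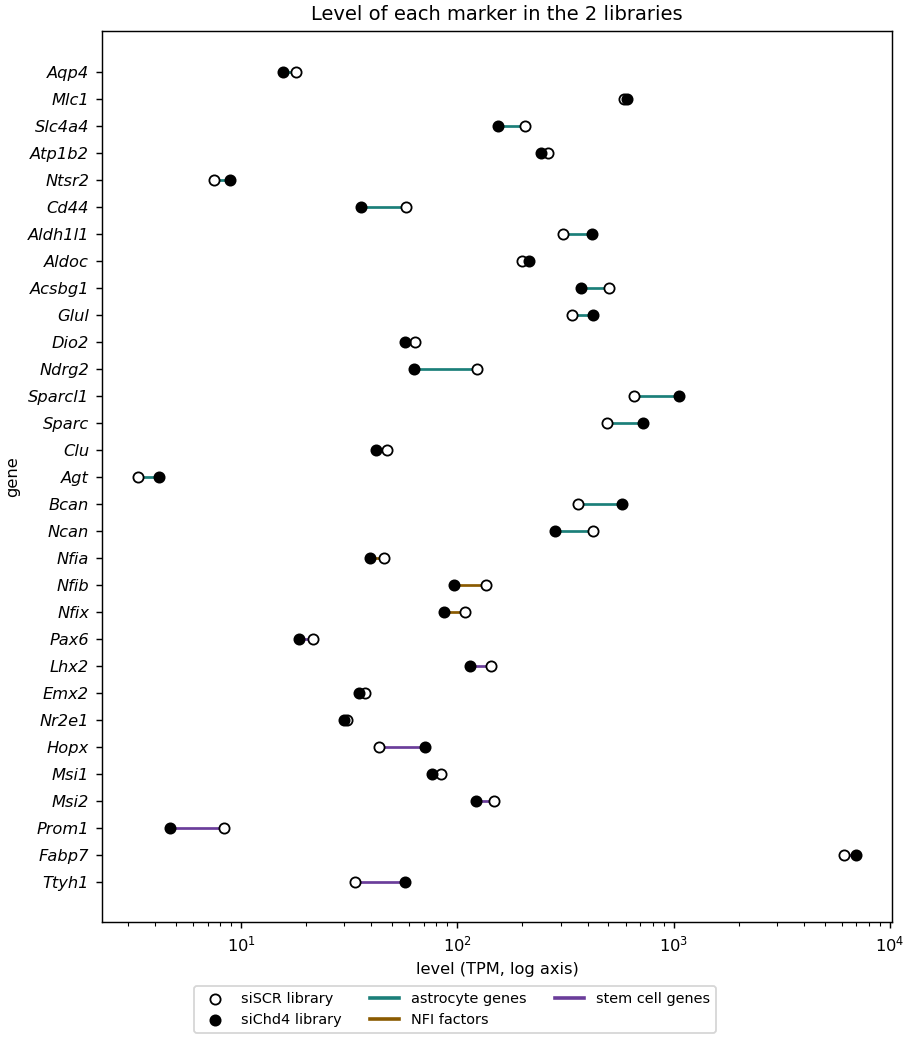
Level of each of the 31 markers on a log axis in TPM, with open circles for the siSCR library and filled circles for the siChd4 library, joined by a line coloured by group. The markers span from 3.33 TPM (Agt) to 7004 TPM (Fabp7), and the gap between the circles is widest for Ndrg2.

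Set side by side, the 18 astrocyte genes and the 10 stem cell genes, as grouped here, both had members above and below 0. The astrocyte genes had 9 members above 0 and 9 below, with a median log2 ratio of -0.04 and a range from -0.96 to 0.70. The stem cell genes had 3 above and 7 below, with a median of -0.12 and a range from -0.71 to 0.74. Those 3 were Hopx, Ttyh1 and Fabp7, and Fabp7 is also read in astrocytes. Pax6, Lhx2, Emx2, Nr2e1, Msi1 and Prom1, named above as signs of the stem cell state, all lay below 0. The intervals of Emx2 and Nr2e1 included 1. Of the genes named as signs of astrocyte maturation, Aldh1l1 and Glul lay above 0 and Aqp4 below. Of all compared genes, 55.3% were below 0. Past 1.5-fold upward were 2 of the 18 astrocyte genes and 2 of the 10 stem cell genes, where 6.75% of all compared genes were. Downward there were 2 astrocyte genes and 1 stem cell gene, where 4.47% were. Summed over its members, the astrocyte group stood at 5300 TPM in siChd4 beside 4659 TPM in siSCR (1.14-fold), and the stem cell group at 7533 and 6655 TPM (1.13-fold). The ratio of the astrocyte sum to the stem cell sum was 0.704 in siChd4 and 0.700 in siSCR. Fabp7 made up 93.0% and 91.7% of the stem cell sum. Without Fabp7 the stem cell group was at 530 against 550 TPM (0.962-fold), beside 1.14-fold for the full astrocyte sum. The ratio of the full astrocyte sum to the stem cell sum without Fabp7 was 10.01 in siChd4 and 8.47 in siSCR. The near-equal ratios of the full sums thus depended on Fabp7. Without Sparcl1 the astrocyte group was 1.06-fold.

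**Figure D2:**
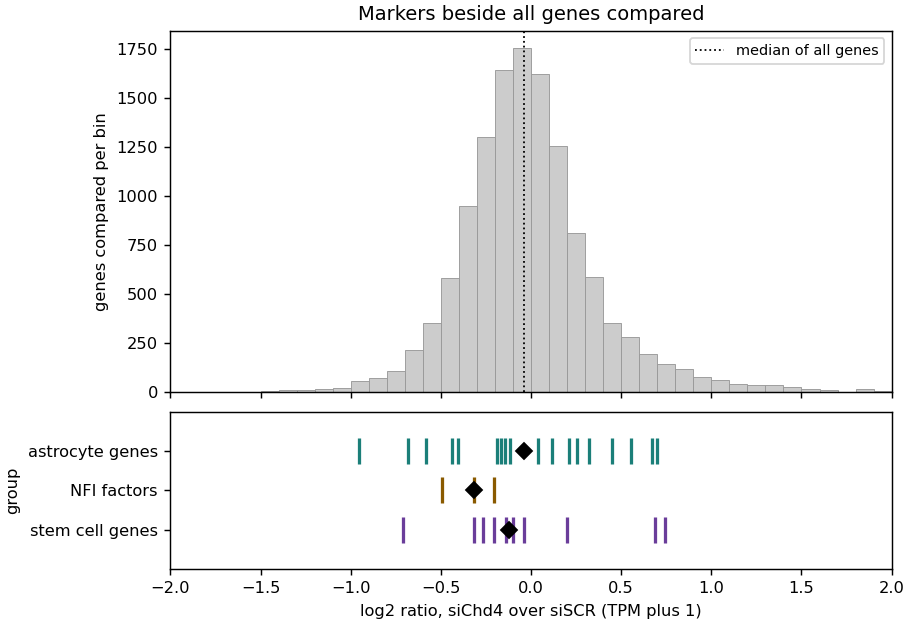
The upper panel counts all 12882 compared genes by log2 ratio (siChd4 over siSCR, TPM plus 1, bins of 0.1), and the lower panel gives each marker as a tick by group, with the group's median as a diamond. The axis runs from -2 to 2 and leaves out genes beyond it. The astrocyte and stem cell ticks lie on both sides of 0, and the 3 NFI ticks lie below it.

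Among secreted and matrix proteins of astrocytes, 4 of 6 were above 0, where 44.5% of all compared genes were. Sparcl1, a secreted protein that promotes synapse formation, was at 1059 TPM in siChd4 beside 653 TPM in siSCR, a fold of 1.62 (1.59 to 1.65). Its relative Sparc, a collagen-binding matrix protein, was at 723 and 493 TPM, a fold of 1.47 (1.43 to 1.51), just short of the limit, which it passed with upper quartile scaling, with TMM and on FPKM. In siChd4 they ranked 2 and 3 in level among the 31. Bcan (brevican) and Ncan (neurocan), hyaluronan-binding proteoglycans of the same family, differed in opposite directions. Bcan was at 575 TPM in siChd4 beside 361 TPM in siSCR, a fold of 1.59 (1.55 to 1.64). Ncan was at 282 and 423 TPM, a fold of 0.667 (0.654 to 0.680). Their order within a library therefore turned, with a ratio of Bcan to Ncan of 0.854 in siSCR and 2.04 in siChd4. Clu (clusterin), a secreted chaperone, was at 42.0 against 47.2 TPM, and its interval of 0.793 to 0.999 nearly reached 1. Agt, the angiotensin precursor, was the lowest of the 31 at 4.16 against 3.33 TPM, from 63.0 and 47.0 counts, with an interval of 0.843 to 1.86.

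The metabolic genes of astrocytes were divided as well. Aldh1l1, a folate enzyme much used to label astrocytes, was at 421 TPM in siChd4 beside 309 TPM in siSCR (1.36-fold, 1.32 to 1.41). Glul, which makes glutamine from glutamate, was at 422 and 338 TPM, a log2 ratio of 0.321 (fold interval 1.21 to 1.29). Both were above 0 without reaching the limit, at or above 85.0% of compared genes in log2 ratio. Aldoc, the brain aldolase, was at 215 and 199 TPM (1.08-fold). Acsbg1, an acyl-CoA synthetase, lay in the other direction at 372 against 504 TPM (0.738-fold, 0.718 to 0.759), so that the ratio of Aldh1l1 to Acsbg1 was 0.612 in siSCR and 1.13 in siChd4. Dio2, the deiodinase that activates thyroid hormone, was at 57.4 and 63.6 TPM. Ndrg2, a cytoplasmic protein abundant in mature astrocytes, had the lowest ratio of all 31. It was at 63.2 TPM in siChd4 beside 124 TPM in siSCR, a fold of 0.511 (0.474 to 0.551), and 0.815% of compared genes had a lower log2 ratio.

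Of 6 membrane and transport genes of astrocytes, 4 were below 0, where 55.3% of all compared genes were, and the intervals of the other two, Mlc1 and Ntsr2, included 1. Cd44, a hyaluronan receptor, was the 1 of 6 past the limit, at 35.7 TPM in siChd4 beside 57.9 TPM in siSCR (0.617-fold, 0.575 to 0.662). Slc4a4, a sodium bicarbonate cotransporter, was at 154 and 205 TPM (0.753-fold, 0.733 to 0.774). Atp1b2, a sodium pump subunit, was at 243 and 263 TPM (0.923-fold), and the water channel gene Aqp4 at 15.7 and 18.0 TPM (0.870-fold, 0.782 to 0.967). Mlc1, a membrane protein of astrocyte endfeet, was nearly equal at 606 and 591 TPM (1.03-fold, 0.999 to 1.05). Aqp4 and Mlc1, both endfoot genes of mature astrocytes, thus differed little between the libraries while their levels in siSCR were far apart. Ntsr2, a neurotensin receptor gene, was low at 8.88 and 7.54 TPM, with an interval of 0.880 to 1.58.

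**Figure D3:**
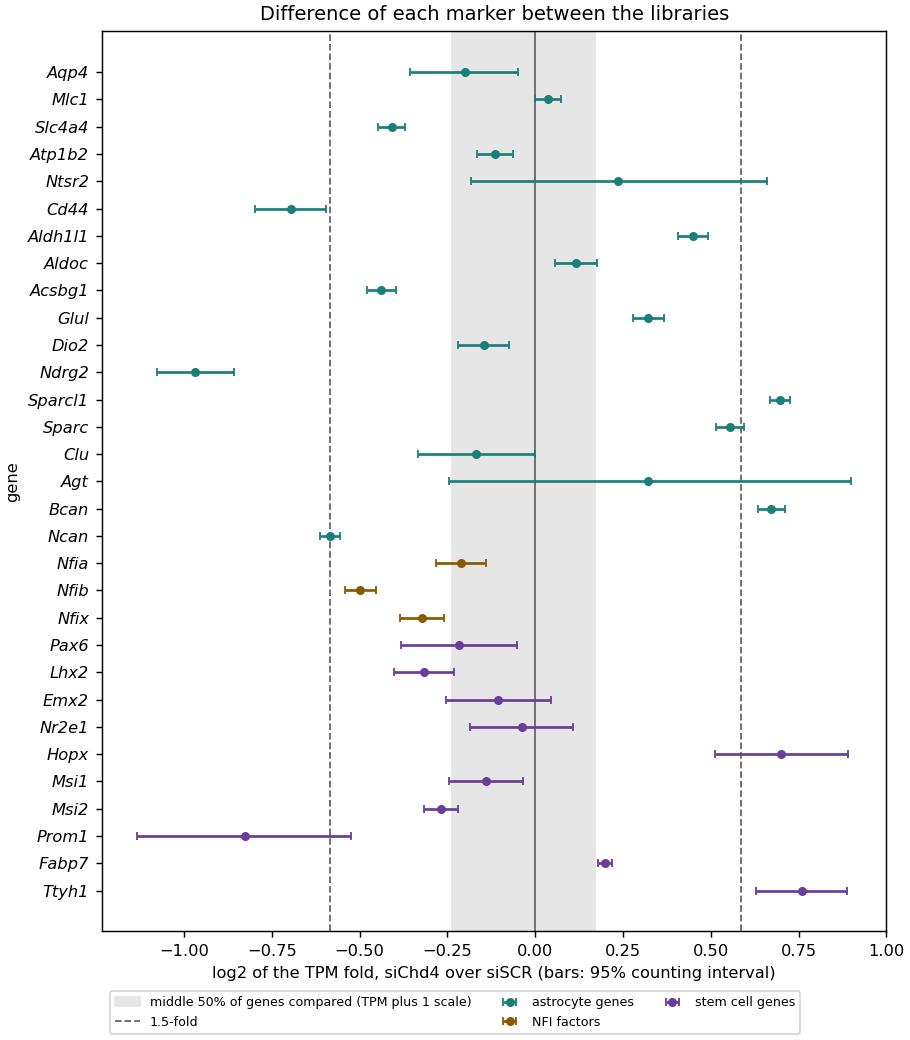
The log2 of the TPM fold (siChd4 over siSCR) for each marker, with bars for the 95% counting interval, coloured by group. The grey band is the middle 50% of all compared genes on the TPM plus 1 scale (-0.24 to 0.17), and dashed lines mark 1.5-fold of TPM, whereas calls used TPM plus 1. Ttyh1, Hopx, Sparcl1 and Bcan lie right of the right line, Ndrg2, Prom1 and Cd44 left of the left line, and Ncan on it.

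All 3 NFI factors among the markers, which switch on astrocyte genes in progenitors, were lower in level without reaching the limit. Among all compared genes, 55.3% were below 0. Nfib was at 96.3 TPM in siChd4 beside 136 TPM in siSCR (0.708-fold, 0.686 to 0.730), Nfix at 86.8 and 109 TPM (0.800-fold, 0.766 to 0.835) and Nfia at 39.6 and 45.8 TPM (0.864-fold, 0.822 to 0.907). Their transcripts are long, with lengths of 8945 bases (Nfib), 5397 (Nfix) and 9457 (Nfia) implied by counts and FPKM, beside a median of 2939 over compared genes. Longer transcripts had lower ratios across the table. With that trend subtracted, the log2 ratio was -0.32 for Nfib (from -0.49), -0.24 for Nfix (from -0.32) and -0.02 for Nfia (from -0.21). Among the 31 markers, the Spearman rho of the log2 ratio with length was -0.46, beside -0.18 over 12872 compared genes, as a description across genes that share both libraries. The long transcripts of Ncan and Slc4a4 had log2 ratios of -0.45 (from -0.58) and -0.26 (from -0.41) after the subtraction.

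The transcription regulators of stem cells were nearly equal or slightly lower, apart from Hopx. Lhx2, which holds back early astrocyte formation in the hippocampus, was at 114 TPM in siChd4 beside 143 TPM in siSCR (0.803-fold, 0.757 to 0.851). Pax6, of dorsal radial glia, was at 18.6 and 21.6 TPM (0.861-fold, 0.768 to 0.965). Emx2, of dorsal progenitors, was at 35.0 and 37.6 TPM (0.839 to 1.03), and Nr2e1 (Tlx), required for adult stem cell self-renewal, at 30.0 and 30.9 TPM (0.879 to 1.08). Neither could be told from equal levels at this depth. Hopx, a homeodomain protein of outer radial glia and of stem cells of the dentate gyrus, was at 70.6 TPM in siChd4 beside 43.5 TPM in siSCR (1.62-fold, 1.43 to 1.85).

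The other stem cell genes differed in both directions. Ttyh1, a membrane protein of the Tweety family found in radial glia, had the highest ratio of all 31, at 57.2 TPM in siChd4 beside 33.8 TPM in siSCR (1.69-fold, 1.55 to 1.85). Prom1, which encodes the surface protein CD133 used to sort stem cells, was at 4.72 and 8.37 TPM, a fold of 0.564 (0.456 to 0.695) from 145 and 246 counts. On FPKM its log2 ratio was -0.55, which is short of the limit. The ratio of Hopx to Prom1 was 5.20 in siSCR and 15.0 in siChd4. The Musashi RNA-binding proteins, which repress translation of differentiation genes, were slightly lower in TPM. Msi2 was at 123 and 148 TPM (0.830-fold, 0.803 to 0.859) and Msi1 at 76.4 and 84.3 TPM (0.907-fold, 0.843 to 0.975). For Msi1 the counts were nearly equal, at 1483 in siChd4 and 1468 in siSCR. Its implied transcript length was longer in siChd4 (1.06 of that in siSCR, relative to other genes). On CPM with TMM its log2 ratio was -0.027 (from -0.14). Fabp7, the brain lipid-binding protein, was at 7004 and 6105 TPM (1.15-fold, 1.13 to 1.16), which ranked 4 and 3 in level over the whole table.

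Exons of 9 of the 31 markers overlap another gene on the opposite strand in GENCODE M21, among them Hopx, Ttyh1, Prom1, Emx2, Aldh1l1 and Glul. The overlaps ranged from 4 bases (Nfia, and Nfix with Lyl1) to 388 bases (Hopx). How strand was used in counting is not known from the sources used here, so reads from the shared bases cannot be told apart. Of the 13 overlapping genes, 11 lie on the opposite strand and 2 on the same strand (Gm45901 with Aldh1l1 and Mir8114 with Glul), where stranded counting would not part those reads either. Lyl1, opposite to Nfix, was at 0.36 and 0.15 TPM, too low to be compared, and the other overlapping genes were not analysed here.

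Among 36 other astrocyte and radial glia genes, 3 were higher (Apoe, Sox9 and Fjx1), where 6.75% of all compared genes were, and 4 were lower (Gja1, Gabrg1, Gli3 and Slc1a2), where 4.47% were. Their median log2 ratio was 0.09, beside -0.04 over all compared genes. Fjx1, a relative of a fly gene of planar cell polarity, was at 174 TPM in siChd4 beside 112 TPM in siSCR. Gabrg1, a GABA receptor subunit of glia, was at 23.3 and 43.3 TPM (0.538-fold, 0.495 to 0.585). The most abundant, the filament gene Vim, was at 4835 and 3340 TPM (1.45-fold), and the next, the phosphatase receptor Ptprz1, at 1202 and 1518 TPM (0.792-fold).

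A list of 31 signalling genes and chromatin regulators covers the switch to astrocytes, among them Dnmt1 and Ezh2, which restrain astrocyte genes. Of these, 28 could be compared and 23 were below 0, where 55.3% of all compared genes were, with a median log2 ratio of -0.21. Past 1.5-fold, 1 was higher (6.75% of all compared genes) and 3 were lower (4.47%). Their median transcript length was 4683 bases, beside 2939 over compared genes. With the length trend subtracted, an alternative chosen after seeing the data, 22 were below 0, the median was -0.19, and 1 was higher and 2 lower. In the JAK-STAT branch the receptor subunits parted. Cntfr, which binds CNTF, was at 76.6 TPM in siChd4 beside 40.8 TPM in siSCR (1.88-fold, 1.72 to 2.05), though its implied transcript length was shorter in siChd4 (0.906 of that in siSCR, relative to other genes). Il6st (gp130), the shared signalling subunit, was at 22.6 and 45.9 TPM (0.493-fold, 0.456 to 0.532), and Stat3, named after its value was seen, at 142 and 131 TPM. All 9 compared genes of the BMP branch were below 0, with a median transcript length of 5413 bases. With the length trend subtracted the 9 were still below 0, and their median moved from -0.20 to -0.14. Smad5, a BMP signal transducer, was past the limit at 81.7 and 130 TPM (0.626-fold, 0.602 to 0.651), but not after the subtraction, which moved its log2 ratio from -0.67 to -0.56. Id3, a BMP target, was at 160 and 184 TPM. In the Notch and nuclear branch, 8 of 9 were below 0. Zbtb20, a zinc finger factor that promotes astrocyte formation, was at 3.28 and 10.4 TPM (0.314-fold, 0.284 to 0.347), and Dnmt1, the maintenance DNA methyltransferase, at 164 and 201 TPM. The implied transcript of Zbtb20 is long, at 18742 bases. Subtracting the length trend moved its log2 ratio from -1.42 to -1.09 and that of Il6st from -0.99 to -0.91. Both stayed past the limit.

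**Figure D4:**
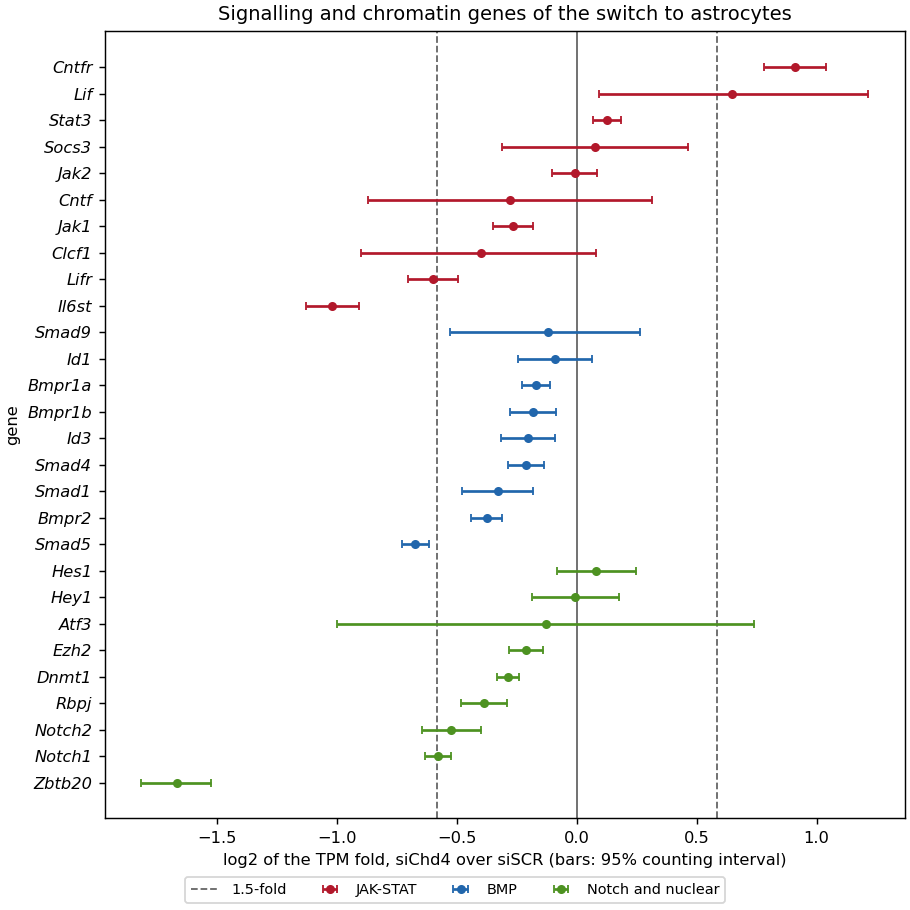
The log2 of the TPM fold (siChd4 over siSCR) for the 28 compared genes of the JAK-STAT, BMP, and Notch and nuclear branches, with bars for the 95% counting interval and dashed lines at 1.5-fold of TPM. All 9 BMP genes lie left of 0, and Cntfr and Il6st lie apart at the ends of the JAK-STAT branch. Lif and Lifr pass a line but were not called on the TPM plus 1 scale.

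Markers of other cells that a neural culture can hold differed as well. Of 10 oligodendrocyte lineage markers, 8 could be compared, all 8 lay above 0 and 6 were higher, with a summed level of 272 TPM in siChd4 beside 141 TPM in siSCR. Cnp, the most abundant and one of the 6, was at 186 and 93.5 TPM. Of 10 neuron markers, 9 could be compared, all 9 lay above 0 and 5 were higher, from Tubb3 (4.60-fold) over Ina, Dcx and Syt1 to Snap25 (2.18-fold), named after their values were seen. These markers summed to 677 and 498 TPM, most of it from Map2 at 516 and 427 TPM, which was not among the 5. Over all compared genes, 44.5% lay above 0 and 6.75% were higher. Bcan is also made by oligodendrocyte precursors. The part of these cells in the levels of the 31 markers was not tested, and in bulk RNA fewer cells of a type and less RNA per cell cannot be told apart. Ependymal markers summed to 36.7 and 40.6 TPM, mostly Foxj1 at 29.4 and 34.0 TPM, with 3 of 6 compared and 0 past the limit. Fibroblast markers summed to 13.5 and 6.15 TPM, with Pdgfra, also a marker of oligodendrocyte precursors, at 10.3 and 4.85 TPM, and 2 of 6 compared, both higher. Dcn and Lum were at 0 in siSCR. Endothelial and pericyte markers summed to 3.85 and 2.34 TPM, with Kdr at 1.21 and 0.86 TPM as the 1 of 8 compared, and Kcnj8 was at 0 in siSCR. Microglia markers summed to 0.69 and 0.96 TPM and none of the 8 could be compared. Of these, C1qa was at 0 in siChd4 and Aif1 at 0 in siSCR.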

How the data were processed

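RNA-seq values of 2 libraries, 1 per group by their titles, were taken from 1 deposited table. Per the file headers it holds FPKM, TPM and read counts per gene. The deposited counts are estimated counts, since most are not whole numbers, and the authors' TPM sum to the same total in each library. Per the submitters' processing notes, the genome build was mm39. Not given in the sources used here were the aligner and the counting tool, with their versions.

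The measure was the log2 ratio of TPM plus 1 (siChd4 over siSCR) over genes whose mean was 1 TPM or more, and a call was 1.5-fold. Adding 1 understates differences of low genes, and the text therefore prints TPM folds as well. Intervals are exact Clopper-Pearson 95% intervals from counts rounded to whole numbers. They cover counting error only, and no difference between cultures. Reads that carry no molecular identifier are not independent, so even the counting error may be understated. Transcript length is counts over the library total, divided by FPKM, and the length trend is a lowess curve (span 0.3). TMM scaling used edgeR 4.0.16 in R 4.3.3, and the rest Python 3.11.15. Interval and ratio functions were checked on simulated data.

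The markers and gene lists were chosen with earlier results of these data known. Names cover every marker, Chd4, list members past 1.5-fold (up to 4 per direction), the 2 most abundant of each glial list, and the most abundant of each other cell type. Promoters are RefSeq windows of 300 bases in GRCm38.p6, a build other than that of the table, used for sequence only, with the most upstream start of each gene. Overlaps are from GENCODE M21. Alternatives were another pseudocount, scalings, units, limits, filters and groupings.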

Additional observations from a re-analysis of the deposited data

How the results depend on the processing

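Under 6 other settings of the ratio (pseudocount 0.1, median-of-ratios and upper quartile scaling, CPM with TMM, FPKM, length trend subtracted), the 31 markers gave 186 values, of which 142 lay within the counting error of the value reported and 44 moved beyond it. None of the 7 called markers changed sign. Nr2e1 alone did, to 0.029 with upper quartile scaling and 0.018 on FPKM. Higher markers numbered 4 or 5 and lower ones 2 or 3 under these settings. Sparc passed the limit with upper quartile scaling (0.62), TMM (0.59) and FPKM (0.61), and Prom1 no longer did on FPKM (-0.55). There were 4 higher and 3 lower both without a filter and with a minimum mean of 5 TPM. At 2-fold there were 0 higher and 0 lower, and at a log2 ratio of 0.322 there were 6 higher and 7 lower, by construction of the limit. The astrocyte median was -0.14 with the NFI factors added, 0.019 on FPKM and 0.030 with upper quartile scaling, where the medians of all compared genes were 0.015 and 0.026. The summed fold was 1.06 for astrocyte genes without Sparcl1 and 0.962 for stem cell genes without Fabp7. Each was the most abundant gene of its group, with a fold (1.62 for Sparcl1, 1.15 for Fabp7) above that of the group's sum. Depth limits Agt, Ntsr2 and Prom1, the markers with the fewest counts. No paired analysis was possible because there was 1 library per group.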

Other observations

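Relatives of the markers, listed after the marker values were seen, are given as values. Of the lecticans, Vcan (versican) was at 73.0 TPM in siChd4 beside 49.8 TPM in siSCR (1.47-fold, 1.40 to 1.53), in the direction of Bcan and not of Ncan. Tnr, a matrix protein that links lecticans, was at 42.5 and 14.2 TPM (2.98-fold, 2.81 to 3.17), and Hapln4, a link protein, at 6.26 and 4.21 TPM. In the SPARC family, Smoc1 was at 136 and 109 TPM (fold interval 1.19 to 1.31), and Spock2 was nearly equal at 65.5 and 67.0 TPM. Smoc2 was low at 1.94 and 0.54 TPM (3.59-fold, 1.86 to 7.43), and Spock1 lay in the other direction at 1.04 and 1.71 TPM (0.608-fold, 0.397 to 0.922).

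Nfic, the fourth NFI gene, was at 19.9 TPM in siChd4 beside 30.7 TPM in siSCR (0.650-fold, 0.600 to 0.704), the lowest ratio of the family. Of the Ndrg genes, Ndrg1 was at 0.38 and 2.10 TPM, while Ndrg3 (85.3 and 90.8 TPM) and Ndrg4 (63.0 and 59.4 TPM) had intervals that include 1. Ttyh3, the most abundant Tweety gene, was at 296 and 366 TPM (0.809-fold, 0.789 to 0.830), opposite to Ttyh1, and Ttyh2 was at 24.3 and 20.6 TPM. Fabp5, the next fatty acid binding protein after Fabp7, was at 1483 and 1421 TPM (1.04-fold, 1.02 to 1.07).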
